A study of Mus musculus with 5 samples.

Results

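The genes described here are 10 genes tied to the identity of conventional dendritic cells, the antigen-presenting cells that arise from marrow precursors and prime T cells: Flt3, Zbtb46, Bcl11a, Id2, Runx3, Dpp4, Ap1s3, Btla, H2-Eb2 and St3gal5. They were taken by name, with earlier results of these data known. Every probe set annotated to 1 of these symbols and to no other was read. That gave 26 probe sets for the 10 genes, out of 34945 probe sets with a single symbol, which cover 18193 genes.

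Conventional dendritic cells depend on FLT3, a receptor tyrosine kinase whose ligand drives precursors towards the lineage. ZBTB46 is a zinc finger repressor that marks committed precursors and mature conventional cells, and BCL11A acts upstream of Flt3 in early progenitors. ID2 blocks E proteins and with them the plasmacytoid fate, and RUNX3 mediates responses to TGF-beta and shapes subsets. The other genes encode surface and endomembrane proteins: the peptidase DPP4 (CD26), the inhibitory receptor BTLA, the class II beta chain H2-Eb2, the small AP-1 adaptor subunit AP1S3, and ST3GAL5, the sialyltransferase that makes ganglioside GM3. Several of them are not exclusive to dendritic cells. FLT3 is present on early progenitors, BCL11A and BTLA in B cells, ID2 and RUNX3 in natural killer cells, and DPP4 on T cells.

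RNA was measured on Affymetrix arrays, 1 per sample. Brain dendritic cells (DCs; 2 arrays) were sorted from C57BL/6 brains as cells without lineage markers, with high CD45 and with CD11c. Those mice carried subcutaneous B16-Flt3L tumours, grown from a melanoma line that releases the ligand of FLT3 and implanted 12 days before the organs were taken, so the receptor's own ligand was in excess in this group. Monocytes (3 arrays) were sorted from C57BL/6 bone marrow by CD115, high CD11b and low side scatter, and their labels name no treatment. All 5 samples carry the labels female and 6 to 8 weeks, and nothing ties them to different animals, so a p-value here rests on a spread between samples that could be technical alone. Spleen dendritic cells and microglia, named in the series title, were not analysed here. Each value is a log2 value relative to an unstated baseline of its probe set, so arrays can be compared within a gene but levels cannot be compared between genes. Unless said otherwise, a difference is brain DC minus monocyte in log2 (n = 2 and 3 arrays), the error after it is limma's SE, and a call needs an adjusted p under 0.05.

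The genes of the sort gates followed the labels for CD11c (Itgax, 5.02 ± 0.21), CD11b (Itgam, -2.28 ± 0.42) and CD115 (Csf1r, -1.40 ± 0.18), whereas Ptprc, which encodes CD45, was lower in brain DCs (-0.63 ± 0.14). Other measures also separated the groups. Xist was at -0.30 and -0.52 in brain DC arrays, against -5.86, -6.02 and -6.21 in monocyte arrays. The Y-linked genes Kdm5d (-1.09), Uty (-0.91) and Eif2s3y (-0.62) were lower in brain DCs, although all samples are labelled female. These Y-linked genes were above the baseline on brain DC arrays too, Eif2s3y at 3.34 and 2.93, against 3.75, 3.93 and 3.58 on monocyte arrays. Poly-A spike-ins, foreign RNA added before labelling, were higher on both brain DC arrays than on all monocyte arrays in 24 of 24 probe sets (median difference 2.59), and hybridisation spike-ins in 18 of 18 (1.04). The control probe sets at the 5′ and 3′ ends of 2 housekeeping transcripts, which report on RNA integrity and the length of labelled fragments, differed as well. For Actb the 5′ value minus the 3′ value was 0.16 and 0.31 in brain DC arrays, against -3.99, -3.98 and -1.60 in monocyte arrays, and for Gapdh it was 0.34 and 0.22, against -2.78, -2.86 and -2.28. Relative to the baseline, signal from 5′ ends was thus low in the monocyte arrays, least so for Actb in monocyte replicate 3. The group difference of that measure, 3.43 for Actb and 2.92 for Gapdh, was of the size of the largest differences among the identity genes. Where the probe sets below lie along their transcripts was not used here, and the part of this measure in their values was not tested. Tissue, treatment, sort gate and these measures all follow the groups, and their effects cannot be told apart.

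**Figure D1:**
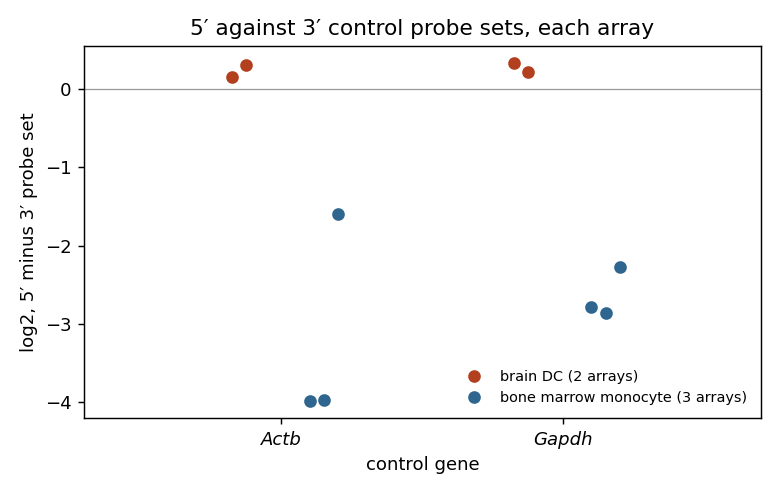
Log2 value of the 5′ control probe set minus that of the 3′ control probe set for Actb and Gapdh; each point is 1 array, brain DC at the left of each pair and monocyte at the right. The 2 brain DC arrays lie between 0.16 and 0.34, and the 3 monocyte arrays between -3.99 and -1.60.

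Promoters from RefSeq (GRCm38.p6, 250 bases before to 50 bases after the annotated start, on the strand of the gene) were found for all 10 genes, Runx3 with 2 of them. Both class II beta chain promoters are shown because H2-Eb2 and most other class II genes were called higher. The difference of H2-Eb2 was the smaller, 1.10 against a median of 4.14 for the others. A further reason is that class II promoters carry the X box and Y box through which the class II transactivator works. H2-Eb2 lies at chr17:34325425-34325724 and H2-Eb1 at chr17:34305617-34305916, both on the plus strand; capitals mark the X box core AGCAAC and the Y box ATTGG on the strand of the gene.
H2-Eb2: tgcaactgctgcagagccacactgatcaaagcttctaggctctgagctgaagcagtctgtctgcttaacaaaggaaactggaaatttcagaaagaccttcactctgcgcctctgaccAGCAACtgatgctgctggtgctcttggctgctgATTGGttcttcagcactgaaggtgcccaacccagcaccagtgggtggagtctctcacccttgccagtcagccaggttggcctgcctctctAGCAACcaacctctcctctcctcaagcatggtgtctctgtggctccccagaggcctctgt
H2-Eb1: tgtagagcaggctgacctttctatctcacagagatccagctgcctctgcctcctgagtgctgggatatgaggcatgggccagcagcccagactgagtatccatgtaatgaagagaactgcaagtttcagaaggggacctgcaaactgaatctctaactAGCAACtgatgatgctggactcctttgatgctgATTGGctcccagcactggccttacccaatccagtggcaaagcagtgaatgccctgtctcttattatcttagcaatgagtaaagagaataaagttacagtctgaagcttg

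In H2-Eb2 the X core began at -133 and the Y box at -100, and in H2-Eb1 at -92 and -59, so the distance was 33 bases in each. A second X core of H2-Eb2 stood at -10, and H2-Eb1 held another Y box on the opposite strand at -35. On either strand, the X core is found in 14.8% and the Y box in 37.4% of 32851 promoters in the table, and the pair at this distance and in this order in 8 of them (0.0244%), which belong to 7 genes. Among the identity genes only H2-Eb2 held the X core, while 5 of the 10 genes held a Y box (Runx3, St3gal5, Bcl11a, Id2 and H2-Eb2).

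The promoters of Flt3, the gene with the largest difference, and of Btla, the one with the most motif types, are shown for the sites of haematopoietic factors. Capitals mark, on either strand, the ETS and PU.1 core GGAAGT, the RUNX core TGTGGT and the IRF element GAAANNGAA. Flt3 lies at chr5:147400440-147400739 on the minus strand and Btla at chr16:45224087-45224386 on the plus strand.
Flt3: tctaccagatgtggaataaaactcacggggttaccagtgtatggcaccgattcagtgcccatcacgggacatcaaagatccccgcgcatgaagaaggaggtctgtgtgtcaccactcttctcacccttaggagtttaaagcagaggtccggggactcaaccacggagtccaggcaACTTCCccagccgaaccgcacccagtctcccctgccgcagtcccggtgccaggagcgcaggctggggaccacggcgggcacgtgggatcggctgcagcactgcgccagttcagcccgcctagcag
Btla: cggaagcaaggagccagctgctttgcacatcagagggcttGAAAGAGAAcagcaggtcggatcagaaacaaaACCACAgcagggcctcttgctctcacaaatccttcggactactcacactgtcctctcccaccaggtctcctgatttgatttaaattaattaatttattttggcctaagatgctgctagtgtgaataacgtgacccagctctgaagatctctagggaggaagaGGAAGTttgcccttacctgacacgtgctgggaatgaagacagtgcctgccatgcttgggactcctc

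Flt3 held the ETS core once, at -75 on the opposite strand. Btla held the longer PU.1 form GAGGAAGT at -18, which overlaps the ETS core at -16, together with a RUNX core at -178 and an IRF element at -210. The ETS core was in promoters of 4 of the 10 genes (Ap1s3, Dpp4, Flt3 and Btla) and in 23.8% of all promoters, GAGGAAGT in Btla alone and in 3.2% of all, the RUNX core in Runx3 and Btla and in 16.8%, and the IRF element in Dpp4 and Btla and in 8.6%. These are matches of letters and say nothing on whether a factor binds.

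Brain DCs showed more transcript than monocytes for 9 of the 10 genes, none was called lower, and Bcl11a was not called. Over all 18193 genes, 16.9% were called higher and 16.9% lower. Brain DC and monocyte arrays did not overlap for any of the 10 genes, compared with 60.2% of all genes. The median difference of the 10 genes was 2.02, against 0.09 for all genes measured. The 10 genes were chosen with earlier results of these data known, so these contrasts with all genes are not independent evidence. In whole sorted populations a larger share of expressing cells and more RNA per cell cannot be told apart.

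The differences ran from Flt3 (3.06) through Dpp4 (2.94), Id2 (2.39), St3gal5 (2.38), Ap1s3 (2.08), Zbtb46 (1.95), Btla (1.17), H2-Eb2 (1.10) and Runx3 (1.02) to Bcl11a (0.27). Of the 9 neighbouring pairs in this order, only Zbtb46 and Btla had 95% intervals that did not overlap, 1.63 to 2.27 for Zbtb46 and 0.78 to 1.55 for Btla. The upper 6 genes had intervals that began at 1.63 or more and the lower 4 had intervals that ended at 1.55 or less. Within these sets, Dpp4 exceeded Id2 by 0.55 (combined SE 0.21) and Runx3 exceeded Bcl11a by 0.75 (combined SE 0.25). The other 6 neighbouring pairs were at most 0.30, or 1.49 combined SEs, apart. A combined SE treats the genes of a pair as independent, although both were read on the same arrays. Probe sets compress differences to unequal degrees, so this order ranks measured differences and not biological sizes.

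**Figure D2:**
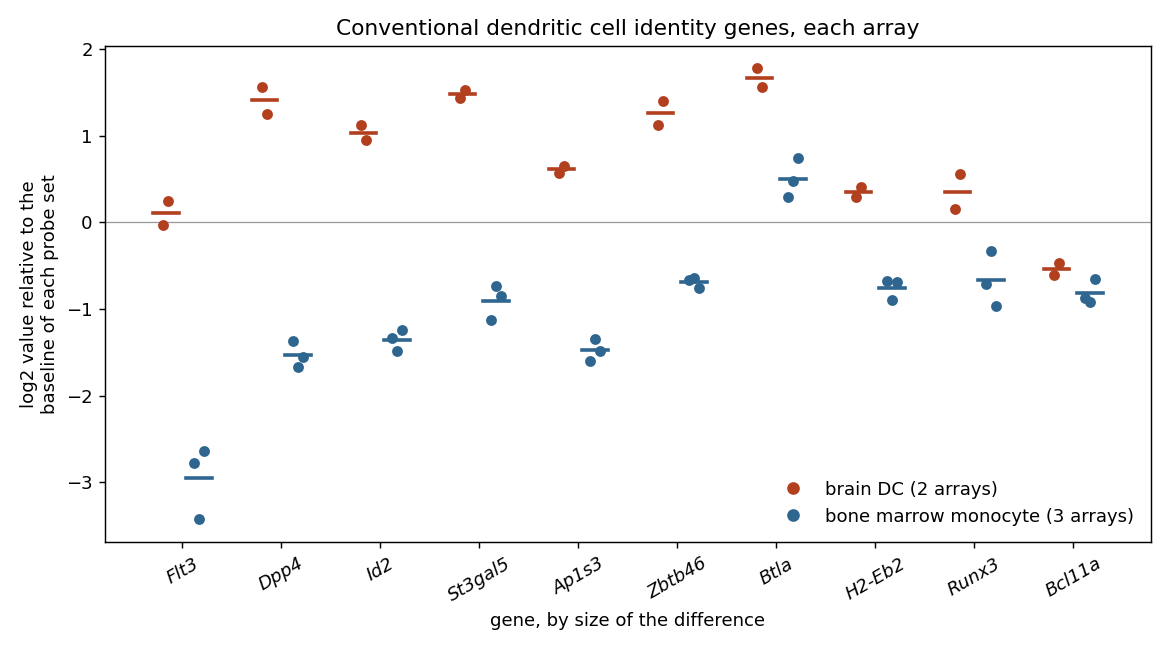
Log2 value of each of the 10 genes on each array, relative to the baseline of its probe sets and averaged over them; horizontal bars are group means, brain DC at the left of each pair and monocyte at the right. All 10 genes lie higher on both brain DC arrays than on all 3 monocyte arrays, by a narrow margin for Bcl11a.

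Flt3, the receptor of the lineage's main growth factor, was read by a single probe set (1419538_at). It had -0.03 and 0.24 in brain DC arrays, against -2.78, -3.43 and -2.64 in monocyte arrays. Both brain DC arrays stood close to the baseline and all monocyte arrays far below it. The difference was 8.32-fold (3.06 ± 0.24, limma adjusted p = 0.000108). Of 13 measured genes of the FLT3 pathway 1 was called higher, 4 were lower and 8 were not called, with a median of -0.38, beside 16.9% of all genes in each direction. The regulatory PI3 kinase subunit gene Pik3r1 was the higher one (0.91 ± 0.14). Stat5b, a transcription factor activated downstream of cytokine receptors (-1.19 ± 0.17), Cbl, a ubiquitin ligase that ends receptor signalling (-0.99 ± 0.21), and Pik3cd, the catalytic delta subunit of PI3 kinase (-0.57 ± 0.12), were lower. Leaving out brain DC replicate 1 ended the call of Cbl (limma adjusted p = 0.0544) and left 2 pathway genes lower. That of Pik3cd was lost when the median of its probe sets was used (limma adjusted p = 0.102). The gene of the ligand itself, Flt3l, shares its probe set with Rpl13a and has no value of its own.

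Among the transcriptional regulators, Zbtb46, Id2 and Runx3 were higher in brain DCs. Zbtb46 averaged 1.12 and 1.40 in brain DC arrays, against -0.67, -0.64 and -0.75 in monocyte arrays, a 3.86-fold difference (1.95 ± 0.14, limma adjusted p = 6.97e-05). The arrays within each group lay close together, yet the 4 probe sets of the gene did not report the same difference. Probe set 1429168_at had 2.75 and 3.10 in brain DC arrays, against -1.44, -1.22 and -0.87 in monocyte arrays, a 17.2-fold difference (4.10 ± 0.21). Probe set 1454884_at was 6.53-fold higher (2.71, interval 1.96 to 3.45), 1440489_at was at 0.68 (interval 0.21 to 1.15), and 1453856_at was at 0.31 (interval -0.06 to 0.68) and not called. All 4 had groups that did not overlap, but the intervals of the first pair lay above those of the second pair, so the gene mean sits between a large and a small difference.

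Id2, the inhibitor of E proteins, was at 1.12 and 0.95 in brain DC arrays, against -1.34, -1.48 and -1.24 in monocyte arrays. The groups were separated by 2.20 at the closest arrays, and the difference was 5.24-fold (2.39 ± 0.14, limma adjusted p = 2.56e-05). All 3 of its probe sets were called higher, 1422537_a_at by 3.70, 1435176_a_at by 2.20 and 1453596_at by 1.27. The last is the only one without a suffix for probes shared between transcripts, and with it alone the gene's difference was 1.27 (limma adjusted p = 0.00216).

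Runx3, in which the arrays of a group differed most in relation to the group difference among the called genes, was at 0.15 and 0.55 in brain DC arrays, against -0.72, -0.33 and -0.96 in monocyte arrays, a 2.03-fold difference (1.02 ± 0.21, limma adjusted p = 0.00877). Most of the spread came from 1440275_at, which had 0.10 and 0.95 in brain DC arrays, against -0.78, 0.09 and -1.53 in monocyte arrays. There brain DC replicate 1 and monocyte replicate 2 were almost level, and the probe set was not called (1.26 ± 0.46, limma adjusted p = 0.0800). The other, 1421467_at, had 0.21 and 0.16 against -0.65, -0.75 and -0.40 and was called (0.78 ± 0.17, limma adjusted p = 0.0113). Without brain DC replicate 2 the gene lost its call (0.82, limma adjusted p = 0.0539).

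Bcl11a was the exception among the 10 genes. Its mean was -0.61 and -0.48 in brain DC arrays, against -0.87, -0.92 and -0.65 in monocyte arrays, and the closest arrays of the groups were 0.04 apart. All 5 arrays lay below the baseline, and the difference of 0.27 ± 0.14 was not called (limma adjusted p = 0.173), with a 95% interval of -0.05 to 0.60. Of its 7 probe sets 1 was called, 1447334_at, with 0.42 and 0.03 in brain DC arrays, against -0.57, -0.98 and -0.49 in monocyte arrays (0.90 ± 0.21, limma adjusted p = 0.0165). The other 6 ranged from -0.41 to 0.48, and 3 of the 7 had groups that overlapped. The negative one, 1456632_at, had -1.19 and -1.21 in brain DC arrays, against -1.09, -1.13 and -0.13 in monocyte arrays, so that monocyte replicate 3 alone stood apart.

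**Figure D3:**
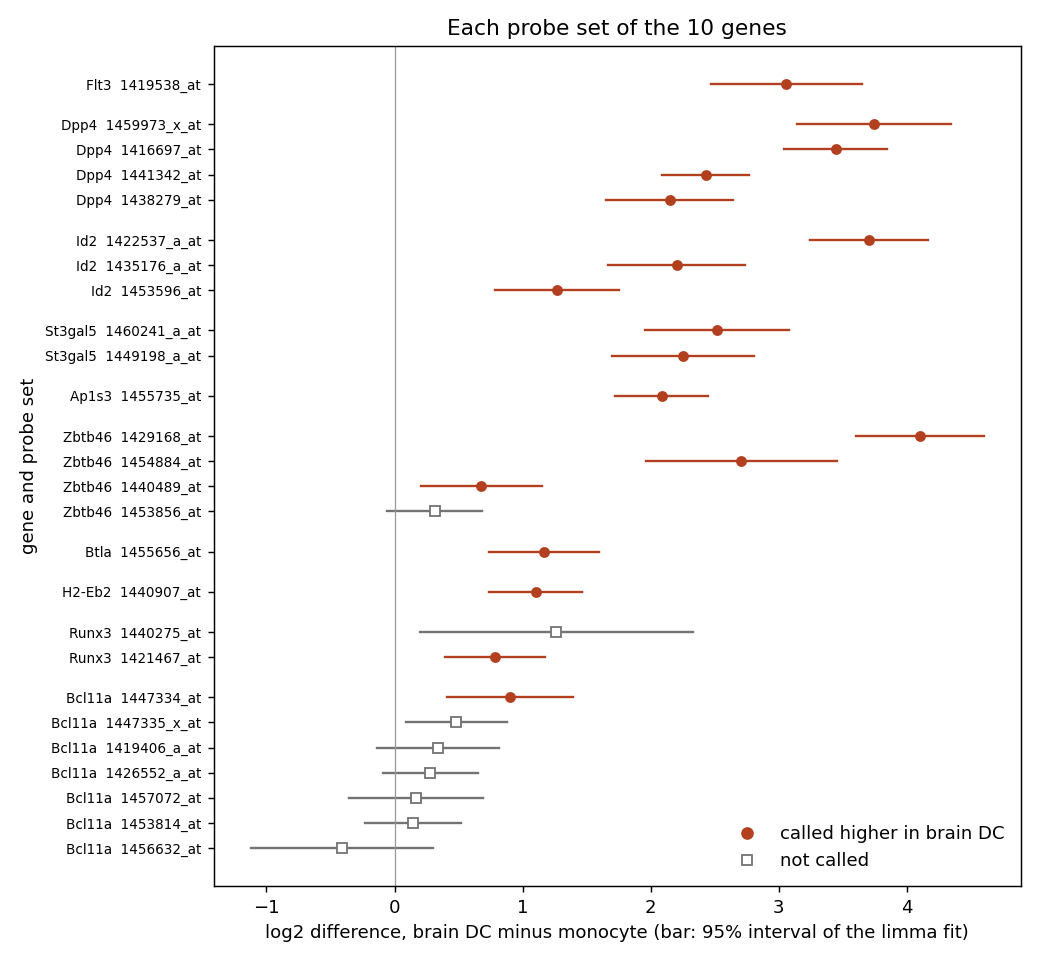
Log2 difference, brain DC minus monocyte, for each of the 26 probe sets of the 10 genes, with the 95% interval of the limma fit over all 45037 probe sets that are not controls; filled circles were called and open squares were not. Of the 26 probe sets 18 were called higher, and the spread within a gene is widest for Zbtb46, from 0.31 to 4.10.

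Read probe set by probe set, 18 of 26 were called higher, 0 lower and 8 not called by limma, against 12.2% higher and 15.5% lower of all 45037 probe sets, and 23 of the 26 had groups that did not overlap, against 55.4%. In 1 of those 23, 1456632_at of Bcl11a, the brain DC arrays were the lower ones. The 8 that were not called were 6 of Bcl11a, 1 of Zbtb46 and 1 of Runx3. Probe sets of 1 gene share its transcripts and are not independent of each other.

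Of 8 measured genes of the RUNX, ID and E protein families 2 were higher, 1 lower and 5 not called (median -0.08). These counts are near the shares over all genes, 16.9% higher and 16.9% lower, and say nothing particular about the families. The same holds for the counts of the DPP4, BTLA, AP-1 adaptor and ganglioside lists given further on. Id3, an inhibitor of E proteins like Id2, was 5.22 ± 0.12 higher (limma adjusted p = 8.12e-07), more than Id2 itself. Cbfa2t3, a corepressor that works with E proteins, was at 0.43 ± 0.14 and lost its call under 10 of 11 alternatives. Cbfb, the subunit that pairs with all RUNX proteins and strengthens their DNA binding without binding DNA itself, was lower (-0.80 ± 0.13), so Runx3 and its partner were called in opposite directions. The inhibitor genes Id1 (0.93) and Id4 (0.07), the E protein genes Tcf3 (-0.43) and Tcf12 (-0.24), and Runx1 (-0.35), which is needed for blood stem cells, were not called.

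Of the surface proteins, Dpp4 had the larger difference. DPP4 is a serine peptidase that trims chemokines and other peptides. It was at 1.56 and 1.25 in brain DC arrays, against -1.37, -1.67 and -1.56 in monocyte arrays, a 7.68-fold difference (2.94 ± 0.15, limma adjusted p = 1.85e-05). The gap between the closest arrays, 2.63, was the widest of the 10 genes. All 4 probe sets were called higher, from 2.15 (1438279_at) to 3.74 (1459973_x_at). In the list around DPP4, Ada, the adenosine deaminase gene, was also higher (1.59 ± 0.25). The related peptidase genes Fap (-0.89 ± 0.26) and Dpp8 (-0.57 ± 0.12) were lower. In all, 1 of 8 measured genes of this list was higher, 2 were lower and 5 were not called (median -0.16). The lower pair lost their calls without brain DC replicate 1 (0 lower), Fap also without monocyte replicate 1 or 2.

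Btla encodes an inhibitory receptor of the immunoglobulin superfamily that binds the TNF receptor family member HVEM. It was at 1.77 and 1.56 in brain DC arrays, against 0.29, 0.47 and 0.74 in monocyte arrays, a 2.25-fold difference (1.17 ± 0.17, limma adjusted p = 0.00159). It was the only one of the 10 genes whose monocyte arrays all lay above the baseline. The gene of its ligand HVEM, Tnfrsf14, was at 0.09 and was not called. The list around BTLA held 7 measured genes, of which 2 were called higher, 1 lower and 4 not called (median 0.17). The 4 genes of the HVEM binding network, Tnfrsf14, Cd160 (0.23), Lta (0.17) and Tnfsf14 (0.15), were the ones not called. Ptpn6, the phosphatase that BTLA recruits, was lower (-0.58 ± 0.16). The higher ones were Cd24a, a surface glycoprotein gene (2.70 ± 0.21), and Cd5, a scavenger receptor gene of lymphocytes (0.97 ± 0.21), neither of which is an established ligand of BTLA. Cd5 lost its call when brain DC replicate 1 was left out (limma adjusted p = 0.0730), and Ptpn6 lost its own with the replicate number as a block and when replicate 1 of either group or replicate 3 of the monocytes was left out (limma adjusted p up to 0.148).

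H2-Eb2 encodes a class II beta chain next to H2-Eb1 and is read by 1 probe set (1440907_at). It was at 0.29 and 0.40 in brain DC arrays, against -0.68, -0.89 and -0.69 in monocyte arrays, a 2.15-fold difference (1.10 ± 0.13, limma adjusted p = 0.000736). The arrays of each group lay within 0.22 of each other. The median of 10 other class II genes was 4.14, with 9 called higher, 0 lower and 1 not called, beside 16.9% of all genes in each direction. H2-Eb1, whose promoter has the same X and Y box distance, was at 3.70 and 3.98 in brain DC arrays, against -1.32, -1.24 and 0.08 in monocyte arrays (4.67, interval 3.74 to 5.59), well above the interval of H2-Eb2 (0.80 to 1.41). H2-Ob (5.74) and H2-Oa (5.27), which form the loading modulator DO, H2-Ab1 (5.45) and H2-Aa (4.36), the chains of the I-A molecule, and H2-DMb2 (3.91) and H2-DMa (2.23), which edit peptides, were higher, as were the invariant chain gene Cd74 (3.85) and the transactivator gene Ciita (1.65). H2-Ea, the alpha chain that pairs with the E beta chains and is not expressed in C57BL/6 mice, was at 0.05 and not called. H2-Eb2 thus had the smallest difference of the called class II genes.

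Ap1s3 and St3gal5 belong to membrane traffic and glycolipid synthesis. AP1S3 is a small subunit of the clathrin adaptor AP-1, which sorts cargo between the trans-Golgi network and endosomes. Its gene was at 0.57 and 0.65 in brain DC arrays, against -1.60, -1.34 and -1.48 in monocyte arrays, a 4.24-fold difference (2.08 ± 0.13, limma adjusted p = 4.43e-05) on 1 probe set. Both groups were tight, and the difference was many times their spread. The small subunit paralogues differed from it: Ap1s2 was lower (-1.21 ± 0.13, limma adjusted p = 0.000524), and Ap1s1 was at -0.02 and not called. The 95% interval of Ap1s3 (1.77 to 2.39) thus lay on the other side of 0 from that of Ap1s2 (-1.52 to -0.90). Of the large and medium subunits, Ap1b1 was higher (0.95 ± 0.16), Ap1m1 was at -0.55 ± 0.18 and lost its call under 8 of 11 alternatives, and Ap1g1 (-0.35), Ap1g2 (-0.35) and Ap1m2 (-0.23) were not called. That makes 1 of 7 higher, 2 lower and 4 not called, with a median of -0.35.

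St3gal5 had 1.43 and 1.53 in brain DC arrays, against -1.12, -0.74 and -0.86 in monocyte arrays, a 5.22-fold difference (2.38 ± 0.15, limma adjusted p = 4.39e-05). Its 2 probe sets gave 2.52 and 2.25, the closest agreement among the genes with several. Of 12 measured genes around ganglioside synthesis 3 were higher, 2 lower and 7 not called (median -0.06). St8sia1, which converts GM3 to GD3, was higher (1.33 ± 0.14), as were Gm2a, the activator protein of GM2 breakdown (1.58 ± 0.18), and the sialyltransferase gene St3gal1 (0.79 ± 0.21). St3gal2, another sialyltransferase gene, was lower (-1.43 ± 0.18), and the lysosomal sialidase gene Neu1 was at -0.45 ± 0.13 and lost its call under 6 of 11 alternatives. St3gal1 lost its call when replicate 1 of the brain DCs or replicate 2 or 3 of the monocytes was left out (limma adjusted p up to 0.137).

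**Figure D4:**
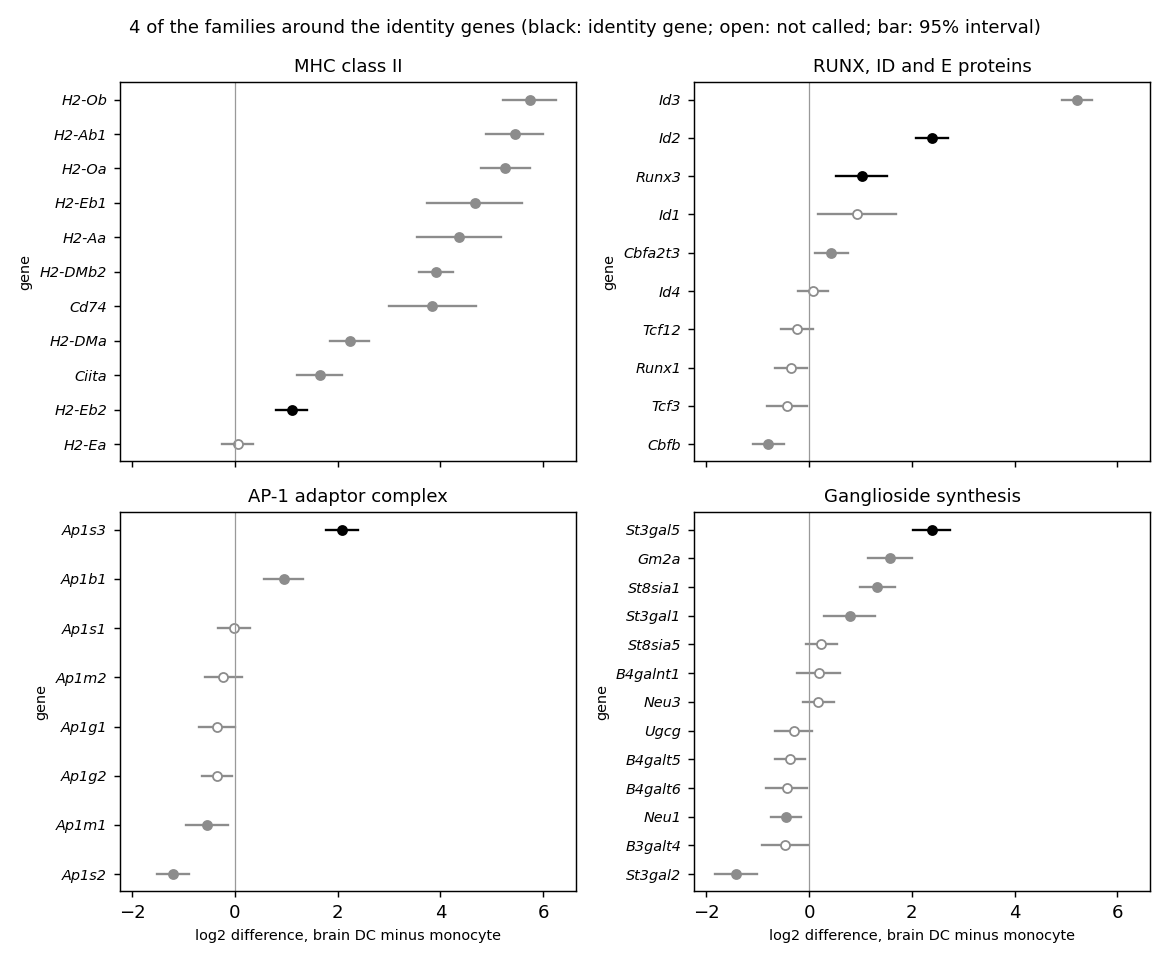
Log2 difference, brain DC minus monocyte, with 95% interval, for 4 gene families; identity genes are black and their relatives grey, and open circles were not called. H2-Eb2 (1.10) lies below the other called class II genes, Id3 (5.22) lies above Id2 (2.39), and Ap1s3 (2.08) and Ap1s2 (-1.21) lie on opposite sides of 0.

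The remaining core genes of conventional dendritic cells had a median of 2.23, and of 20 with a value 15 passed as higher, 0 as lower and 5 in neither direction. The shares over all genes, for this list and the next, were 16.9% higher and 16.9% lower. The 4 with the largest differences were P2ry10, a lysophosphatidylserine receptor gene (7.97 ± 0.28), Itgae, the integrin chain CD103 (5.44 ± 0.17), the signalling adaptor gene Traf1 (4.57 ± 0.14) and the homing receptor gene Ccr7 (16.0-fold). Dendritic cell transcription factors outside the 10 genes were mixed. Their median was 0.15; 7 of 16 passed as higher, 1 as lower and 8 in neither direction, and leaving out brain DC replicate 2 reduced the higher ones to 4. Batf3, required for type 1 cells (3.11 ± 0.18), Spib, a factor of plasmacytoid and B cells (2.59 ± 0.17), and Nfil3, which acts early in the type 1 lineage (1.46 ± 0.25), were higher. Zeb2, which favours monocytes and plasmacytoid cells over type 1 cells, was the lower one (-2.65 ± 0.14). Both lists were chosen with earlier results of these data known.

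Some markers of other cells also differed between the groups, and their part in the values of the 10 genes was not tested. Over all genes, 16.9% were called higher and 16.9% lower, and list counts near those shares say nothing particular about a cell type. The means given next are of a list's centred values on each array. All 9 measured microglia markers were higher, from Sall1 (1.12) to Gpr34 (3.64), with a list mean of 1.47 to 1.71 on brain DC arrays, against -0.69 to -0.55 on monocyte arrays. Among natural killer cell markers 5 of 9 were higher and 0 lower (list mean 1.40 and 1.5 against -0.76 to -0.57). Klrd1 (6.29), Klrk1 (4.06), Tbx21 (3.86) and Gzma (2.75) were among the higher ones, while Ncr1 (0.10) and Eomes (0.08) were not called.

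Plasmacytoid markers had 5 of 10 higher and 0 lower (list mean 0.38 to 0.56 against -0.83 to -0.67), with Bst2 (3.10), Spib (2.59), Siglech (1.78) and Irf7 (1.57) the largest. Some genes stand in several lists and are not separate signals. Siglech is also a microglia marker and Spib a dendritic cell factor. Cd5, a T cell marker, is also in the list around BTLA, and Kit, a progenitor marker, is also a core gene. B cell markers had 2 of 9 higher and 0 lower, near the 16.9% higher over all genes. The higher ones were Fcrla (3.47) and Ms4a1 (1.00), whereas Cd79a (-0.14), Blk (0.03) and Pax5 (0.44) were not called (list mean -0.01 to 0.19 against -0.48 to -0.31). T cell markers had 3 of 8 higher and 0 lower, Cd2 (1.48), Cd5 (0.97) and Cd3d (0.45), the last losing its call under 7 of 11 alternatives (list mean 0.10 to 0.16 against -0.48 to -0.28).

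Progenitor, neural, monocyte and neutrophil lists had members on both sides or few calls. Progenitor markers had 3 of 7 higher, Cd34 (2.91), Kit (2.06) and Gata2 (0.42), and 2 lower, Myb (-2.22) and Meis1 (-0.93), with a list mean of -0.11 on both brain DC arrays against -0.58 to -0.17. Gata2 lost its call under 9 of 10 alternatives. Neural and choroid plexus markers had 2 of 6 higher and 0 lower, Ttr (7.22) and Cldn5 (2.56), with a list mean of 1.61 to 1.86 against -0.10 to -0.04. Monocyte and macrophage markers had 2 of 8 higher, Cd14 (2.31) and Mertk (1.43), and 5 lower, led by F13a1 (-5.36) and Cx3cr1 (-2.56), with a list mean of 1.12 to 1.43 against 2.14 to 2.57. Neutrophil markers had 1 of 9 higher, S100a9 (1.41), and 4 lower, led by Cd177 (-5.67), Mmp8 (-4.76) and Mpo (-4.64), with a list mean of 1.19 to 1.46 against 1.82 to 3.27. The call of Mpo was lost without either brain DC array. Centred values do not say which markers were at background.

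The genes most like each of the 10 were found by the root mean square difference of the 5 array values, each gene centred on its own mean over the 5 arrays. With so few arrays this measure mainly finds genes with a difference of the same size. The nearest to Flt3 were Zfp36l1 (0.12) and Nr4a1 (0.14), to Zbtb46 Dcstamp (0.05) and Antxr2 (0.06), to Id2 Plek (0.02) and Hint3 (0.02), to Runx3 Tmtc2 (0.06) and Gna15 (0.07), and to Bcl11a Tax1bp1 (0.02) and Slurp1 (0.03). Dpp4 lay nearest to the costimulatory ligand gene Cd86 (0.05) and to Pf4 (0.11), Ap1s3 to Nek6 (0.05) and Septin6 (0.06), Btla to Ece1 (0.05) and A930006K02Rik (0.06), H2-Eb2 to Sco2 (0.01) and 1600029O15Rik (0.02), and St3gal5 to the lymphotoxin beta gene Ltb (0.10) and Gadd45b (0.11). Flt3, Dpp4 and St3gal5 had no second neighbour within 0.10, unlike the other 7 genes.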

How the data were processed

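Total RNA of 2 brain DC and 3 monocyte samples was labelled with biotin and measured on Affymetrix arrays, per the labels' protocols. The authors used RMA, per the submitters' processing notes. The deposited values were read as log2 values, since the log base and a centring on a baseline per probe set could only be inferred: array medians lie between -0.05 and 0.00. Its version, and which arrays it took together, is not given in the sources used here.

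Of 45101 probe sets, 64 are controls and 34945 carry 1 symbol in the platform annotation. A gene's value is the mean of its probe sets with 1 symbol. Differences were tested with limma 3.58.1 in R 4.3.3 (lmFit, eBayes, no covariate), over 18193 genes and, separately, over 45037 probe sets, with Benjamini-Hochberg adjustment over each whole table and a threshold of 0.05; intervals are at 95%. The smallest p that exact permutation of 2 and 3 arrays allows is 0.1, and the number of arrays limits the precision. The scripts were tested on simulated data. The 10 genes and all lists were chosen with earlier results of these data known. Listed symbols Pvrl1 and Emr1 were read as Nectin1 and Adgre1. Named genes were all 10 genes, up to 4 called genes with the largest differences of each other list, whole small families, the sort gate genes and the 2 nearest genes of each; further list members, sex-linked genes and the promoter pair spacing were added after values were seen. Promoter sequences and motif positions are from RefSeq, GRCm38.p6. The planned comparison of 2 proteins was not run. Alternatives were the median of probe sets, probe sets without suffix, quantile normalisation, array medians subtracted, robust eBayes, the replicate number as a block and each array left out.

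The sample titles share replicate numbers and name no pairing, so the main fit has no block. Same-numbered deviations from the group means correlated at 0.04 and 0.09 over genes. The deviations of the 2 brain DC arrays mirror each other, so these correlations cannot decide whether arrays are paired.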

Additional observations from a re-analysis of the deposited data

How the results depend on the processing

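All 10 identity genes kept their direction under every alternative that gave a value, and 8 or 9 were called higher: St3gal5 has no value without suffixed probe sets, and Runx3 lost its call without brain DC replicate 2. Called probe sets numbered 17 or 18. With the replicate number as a block, 9 of the 10 genes and 18 of their probe sets were called higher, and 2513 genes were higher and 3006 lower overall; no call among the 10 genes changed with this block. Leaving out 1 array gave 2236 to 2447 higher and 2371 to 2806 lower genes, where a lone brain DC array is assumed to vary like the rest.

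Small counts of relatives moved more. With array medians subtracted, lower AP-1 adaptor genes and lower ganglioside genes each numbered 3, against 2 in the main fit. With the median of probe sets, lower ganglioside genes numbered 3, and lower FLT3 pathway genes 5 against 4 in the main fit. With the block, lower genes of the list around DPP4 numbered 3, against 2 in the main fit. Lower AP-1 adaptor genes numbered 1 with the median of probe sets, without suffixed probe sets and with the block, and 1 to 2 when arrays were left out. Higher RUNX, ID and E protein genes numbered 1 under those 3 settings and with array medians subtracted, and 1 to 2 without an array; lower ones 2 with the median of probe sets, and 1 to 2 without an array. Lower genes of the list around BTLA were 0 with the block and 0 to 1 without an array, and higher ones 1 to 2. Lower ganglioside genes were 1 with the block and 1 to 3 without an array. Lower FLT3 pathway genes were 7 with array medians subtracted and 2 to 4 without an array. Lower dendritic cell factors were 2 without suffixed probe sets and 1 to 2 without an array, and higher ones 4 to 7. Lower DPP relatives were 0 to 2 without an array. The cause was not tested. A filter on dim probe sets was not run, since centred values hold no level.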

Other observations

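The 7 genes whose promoters hold the X core and the Y box 33 bases apart were looked at after this spacing had been seen in H2-Eb2 and H2-Eb1. Besides that pair, Fcrla, an Fc receptor-like gene of B cells, was higher in brain DCs, with 2.65 and 3.53 in brain DC arrays, against -0.38, -0.29 and -0.49 in monocyte arrays (3.47 ± 0.24, limma adjusted p = 6.91e-05). The remaining 4 genes were not called: Apoa2 was at 0.41, Lin7a at 0.30, Setd3 at -0.33 and Akap13 at -0.39. Of all genes, 16.9% were called higher. The spacing was taken from H2-Eb2 and H2-Eb1 themselves, so these calls do not show that it goes with expression.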
